A study of Mus musculus with 4 samples.

Results

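The interferon-inducible GTPases of the guanylate-binding protein (GBP) and immunity-related GTPase (IRG) families were followed in mouse liver through 10 genes: Gbp2, Gbp3, Gbp6, Gbp7, Gbp8, Irgm1, Irgm2, Igtp, Iigp1 and Ifi47. They were found as every probe set of the deposited array table that the platform's annotation gives exactly 1 of these symbols. That gave 14 of the 45101 probe sets, for 10 of the 18194 genes with such a probe set. The 10 genes were chosen by their log2 differences between the genotypes on these same 4 arrays, which were already known, so those differences are given as a description and without a test. The choice had no stated threshold. Each of the 4 arrays carried biotin-labelled cRNA from the liver RNA of 1 male C57BL/6J mouse, 12 weeks old, kept on normal chow and deprived of food for 24 h. There were 2 wild-type mice and 2 Cnot3 heterozygous mice (Cnot3+/-), and arrays are named by genotype and by the number in their label, such as Cnot3+/- 2. The labels do not describe the Cnot3 allele further. CCR4-NOT, the deadenylase complex to which the Cnot3 protein belongs, trims mRNA tails. The question put to the arrays was how transcript levels in the fasted liver differ by genotype. With 2 arrays per group, the number of arrays limits the precision of every value.

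GBP and IRG proteins are large GTPases that cells make in response to interferon gamma and, for many of them, to type I interferons. They gather on the vacuoles of intracellular bacteria and protozoa, where GBPs and effector IRGs disrupt the membrane, while regulatory IRGs stay on the cell's own membranes and hold the effectors inactive. Short DNA elements known from promoters of interferon-induced genes are the gamma-activated site (GAS) and the interferon-stimulated response element (ISRE), the latter bound by interferon regulatory factors. In the liver, Kupffer cells, endothelial cells and hepatocytes can all answer interferon gamma.

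The letters just before the transcription starts of these genes are shown first. The choice by log2 differences did not use them. The families are, however, named for being interferon-inducible, and the elements are known from promoters of such genes. Matches are therefore a description and no separate support for the values. RefSeq promoter windows of build GRCm38.p6, from 250 bases before to 50 bases after a start, were matched by symbol for 7 of the 10 genes, and the windows of Gbp6, Gbp8 and Iigp1 were not used here. An ISRE-like match was GAAA, any 2 bases and GAAA again, on either strand. It was found in 6 of the 7 genes, against 3.44% of all 32851 windows and 3.99% of the 27025 genes with a window. A GAS-like match was the letters TTCNNNGAA, which read the same on both strands. It was found in 3 of the 7 genes, Gbp7, Irgm2 and Igtp, against 8.30% of all windows and 9.55% of the genes with a window. Those 3 genes also held an ISRE-like match, and 0.454% of all windows held both. The stretches around the matches follow, 5′ to 3′ on the gene's strand and with the matches in capitals. They lie at chr3:142620584-142620633 for Gbp2, chr3:142559979-142560034 for Gbp3 and chr3:142530210-142530312 for Gbp7, all on the plus strand. Those of the IRG genes lie at chr11:48871421-48871470 on the minus strand for Irgm1, and at chr11:58214882-58214942 for Irgm2 and chr11:58199491-58199551 for Igtp on the plus strand.
Gbp2: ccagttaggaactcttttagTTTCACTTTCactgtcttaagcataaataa
Gbp3: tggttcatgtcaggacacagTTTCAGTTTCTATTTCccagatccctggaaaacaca
Gbp7: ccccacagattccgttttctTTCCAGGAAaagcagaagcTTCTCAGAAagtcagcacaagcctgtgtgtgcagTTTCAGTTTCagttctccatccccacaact
Irgm1: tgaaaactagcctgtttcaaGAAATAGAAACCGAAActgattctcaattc
Irgm2: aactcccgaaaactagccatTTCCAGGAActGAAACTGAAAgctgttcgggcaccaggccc
Igtp: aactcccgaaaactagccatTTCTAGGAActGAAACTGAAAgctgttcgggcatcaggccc

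All ISRE-like matches of these 6 genes began between 64 and 24 bases before the start. In the 3 GBP genes the letters ran on the opposite strand, so they read TTTC, 2 bases and TTTC here, and in the 3 IRG genes on the gene's own strand. Gbp3 and Irgm1 each held 2 matches that overlap each other, and the second annotated start of Gbp3 had no match of either kind in its window. In Irgm2 and Igtp 2 bases lie between the GAS-like and the ISRE-like letters. Their stretches of 61 bases, aligned without gaps, were the same at 59 positions. Igtp and Irgm2 are next to each other among the protein-coding genes of the RefSeq table, and so are Gbp7 and Gbp3. Ifi47 had neither match, which says only that these letters are not in its window. A match is a description of letters and was not measured as a binding site.

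**Figure D1:**
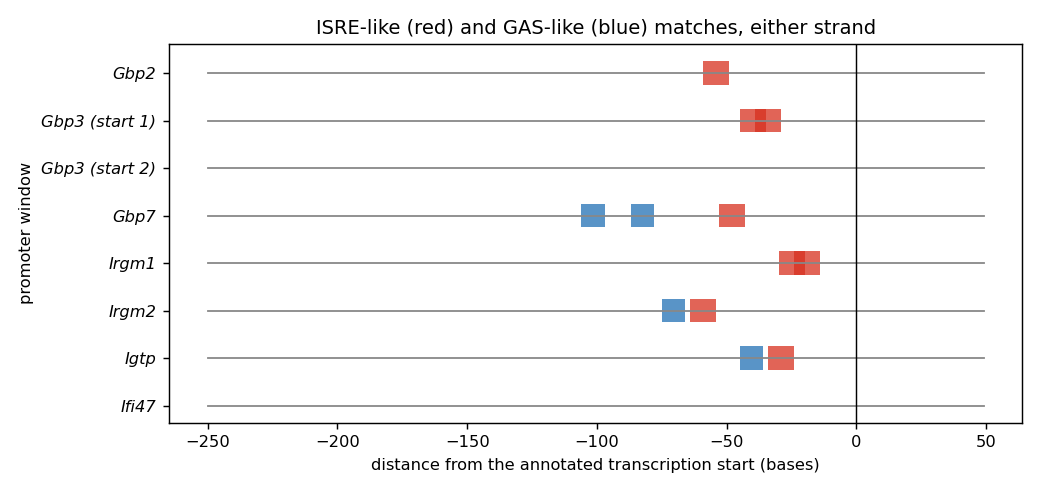
Position of ISRE-like (red) and GAS-like (blue) letter matches, on either strand, in the RefSeq promoter windows of 7 GTPase genes, with distance in bases from the annotated start (vertical line) on the x axis and 1 row for each annotated start. The red matches begin between 64 and 24 bases before the start in Gbp2, the first start of Gbp3, Gbp7, Irgm1, Irgm2 and Igtp, and Ifi47 has no match.

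The values are log2 expression values from RMA, so a difference of 1 is a 2-fold change. The fit covered 13379 genes, each through its brightest probe set after the dimmest 40% of probe sets were left out. Of these genes, 2 were called higher in the arrays labelled Cnot3+/- (0.0149%) and 0 lower (0%) by limma at an adjusted p below 0.05, with 232 higher and 248 lower at an unadjusted p below 0.05. Without moderation of variances 1 gene was called higher and 1 lower. Neither was among the 2 called above, and their differences were small, 0.08 and -0.05. The number called higher was 0 without wild-type 1 or without wild-type 2, and 38 without Cnot3+/- 1. Arrays within a genotype lay at least 2-fold apart at 0.553% of the genes for wild-type and at 3.23% for Cnot3+/-. Cnot3 itself was not lower in the Cnot3+/- arrays: its wild-type values were 7.48 and 8.14 and its Cnot3+/- values 7.70 and 7.86 (difference -0.03, SE 0.25, limma adjusted p = 1). That difference ran from -0.36 to 0.30 as each array was left out. This measurement does not bear out the genotype labels, so each direction rests on the arrays as labelled, and where the probes lie relative to the altered part is unknown here. All 11 hepatocyte markers with a probe set, albumin among them, passed the filter.

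The GBP genes stood far higher on Cnot3+/- 2 than on the other 3 arrays. Gbp6 showed this most. Its protein belongs to the GBPs encoded in the chromosome 5 cluster, where Gbp8 also lies. Its first probe set read 5.59 on wild-type 1, 5.76 on wild-type 2, 6.07 on Cnot3+/- 1 and 10.08 on Cnot3+/- 2. Its second probe set read 4.87, 5.35, 6.01 and 10.01 in the same order. The Cnot3+/- arrays therefore lay above the wild-type arrays on both probe sets, with Cnot3+/- 1 much nearer to wild-type than to Cnot3+/- 2. The Cnot3+/- mean was 2.39 above wild-type (SE 1.25, n = 2 per group) on the first probe set and 2.90 on the second. Cnot3+/- 2 was 16.1-fold above Cnot3+/- 1 on the first.

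Gbp2, whose product is among the best studied GBPs in resistance to Toxoplasma, had its lowest value on the other Cnot3+/- array. It read 4.58 on wild-type 1, 4.83 on wild-type 2, 4.36 on Cnot3+/- 1 and 7.93 on Cnot3+/- 2. A second probe set, of the kind that can match several transcripts, read 5.01, 5.37, 4.42 and 8.24. The groups overlapped on both, since Cnot3+/- 1 lay below both wild-type arrays while Cnot3+/- 2 lay far above them. The difference of means was 1.44 (SE 1.12), and it was -0.34 without Cnot3+/- 2 and 3.23 without Cnot3+/- 1.

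Gbp3 and Gbp7 belong with Gbp2 to the cluster on chromosome 3. Gbp3 read 5.11 on wild-type 1, 5.32 on wild-type 2, 5.80 on Cnot3+/- 1 and 7.98 on Cnot3+/- 2, a difference of 1.68 (SE 0.69). Without Cnot3+/- 2 its difference was 0.59, the largest among the probe sets that stand for the 10 genes. Gbp7, whose product takes part in assembling the phagocyte NADPH oxidase at vacuoles, read 6.75, 6.66, 6.97 and 9.11 on its brighter probe set and 6.32, 6.46, 6.62 and 8.57 on the other. Its groups did not overlap on either probe set, and Cnot3+/- 1 lay above the higher wild-type array by 0.22 and 0.17. Its difference was 1.33 (SE 0.68), and 1.21 on the other probe set.

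Gbp8 was the dimmest member. It read 3.44 on wild-type 1, 3.78 on wild-type 2, 3.95 on Cnot3+/- 1 and 6.33 on Cnot3+/- 2, for a difference of 1.53 (SE 0.76). The first 3 values lie below the median of all probe sets on their arrays. Gbp8 passed the filter on low values only through Cnot3+/- 2, since its mean over the other 3 arrays, 3.72, is under the limit of 4.06. Close relatives within the GBP family can share probes, so values of single members are uncertain to that extent. A probe set annotated with both Gbp8 and Gbp4, left out of the fit, read 5.16, 4.95, 4.65 and 4.94 in the same order. Both Cnot3+/- arrays lay below both wild-type arrays there, so it did not share the high value of Gbp8 on Cnot3+/- 2.

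Each regulatory IRG gene was also highest on Cnot3+/- 2, while the order of the other 3 arrays differed between them. Igtp, which encodes Irgm3, read 8.0 on wild-type 1, 8.35 on wild-type 2, 8.24 on Cnot3+/- 1 and 11.41 on Cnot3+/- 2. Cnot3+/- 1 lay between the wild-type arrays, so the groups overlapped, and Cnot3+/- 2 was 8.98-fold above Cnot3+/- 1. The difference was 1.65 (SE 0.999), and 0.07 without Cnot3+/- 2. Irgm2 read 7.72, 8.07, 8.29 and 10.15 in the order of the arrays above (difference 1.33, SE 0.60). Irgm1, which is needed for resistance to mycobacteria, read 8.24, 8.08, 8.32 and 9.76 (difference 0.88, SE 0.47). For Irgm1 and Irgm2 the groups did not overlap, with Cnot3+/- 1 above the higher wild-type array by 0.09 and 0.22.

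The effector IRG genes were highest on Cnot3+/- 2 as well. Iigp1 encodes Irga6, an effector that coats Toxoplasma vacuoles. Its brighter probe set read 11.75 on wild-type 1, 11.89 on wild-type 2, 12.06 on Cnot3+/- 1 and 13.25 on Cnot3+/- 2. The other probe set read 10.06, 10.09, 10.25 and 11.74. The groups did not overlap on either, and the difference was 0.83 (SE 0.39) on the first and 0.92 on the second. Ifi47, which encodes Irgd, read 8.03, 7.61, 8.03 and 10.43 (difference 1.41, SE 0.77). There Cnot3+/- 1 lay level with wild-type 1, and only Cnot3+/- 2 stood apart.

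**Figure D2:**
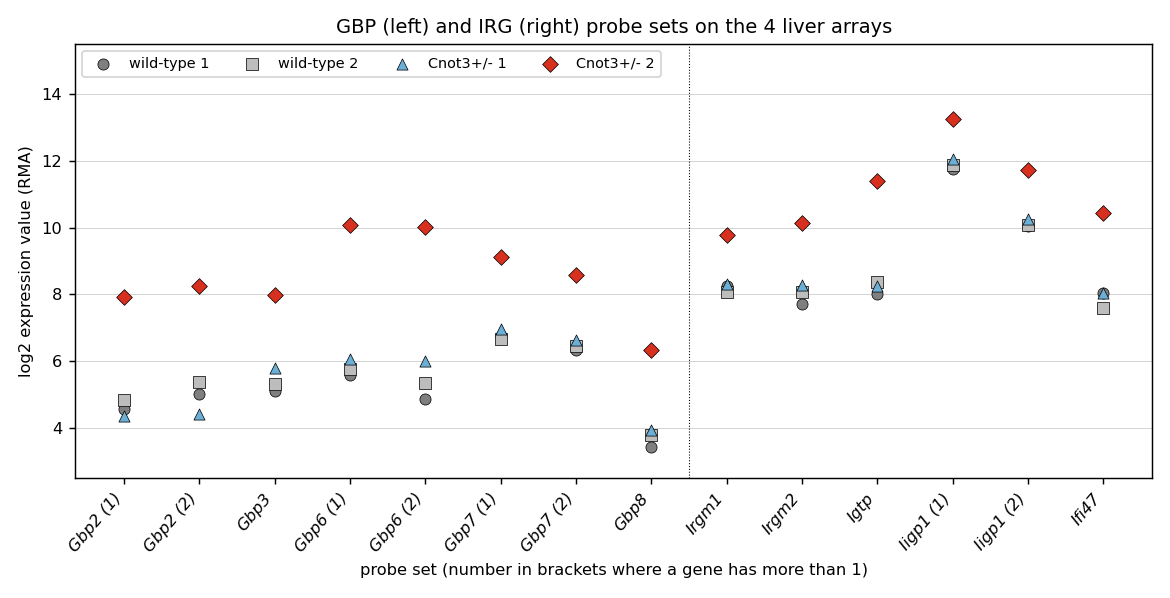
Log2 expression value (RMA) on the y axis for each of the 14 probe sets of the 10 GTPase genes on the x axis, with 1 point per array and GBP genes left of the dotted line. Cnot3+/- 2 (red diamonds) is the highest array for every probe set, at least 2-fold above each of the other 3 arrays.

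The pattern shared by the 10 genes was a single high array. Cnot3+/- 2 was the highest of the 4 arrays for all 10 genes and all 14 probe sets, against 24.9% of all genes tested. It was at least 2-fold above each of the other 3 arrays for all 10, against 1.56% of all genes. Nothing is read from these counts about the choice of the genes, which used the same arrays. The excess of Cnot3+/- 2 over the highest other array ran from 1.19 for Iigp1 to 4.01 for Gbp6. The excess of Gbp6 was the largest among the 13379 genes tested. It ran from 2.14 to 4.01 over the 5 GBP genes and from 1.19 to 3.05 over the 5 IRG genes, so the ranges overlapped.

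**Figure D3:**
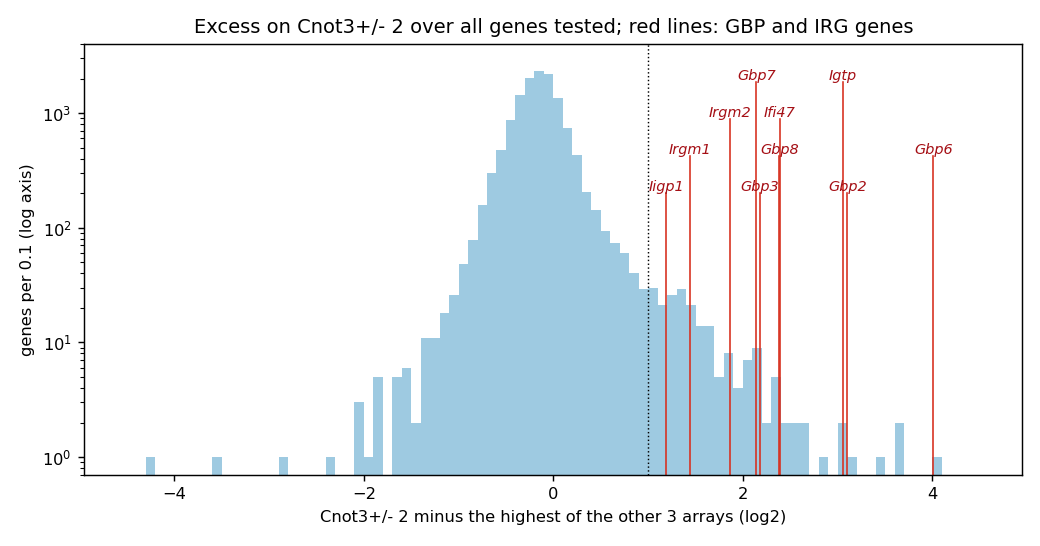
Histogram of the log2 excess of Cnot3+/- 2 over the highest of the other 3 arrays for 13379 genes (bins of 0.1, log y axis), with a red line at the value of each GTPase gene and a dotted line at 2-fold. The 10 genes lie between 1.19 (Iigp1) and 4.01 (Gbp6), to the right of the dotted line, and 1.56% of all genes reach 2-fold.

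Cnot3+/- 1 showed little of this. It lay above both wild-type arrays for 7 of the 10 genes, against 30.1% of all genes, by at most 0.48 on the probe sets that stand for the genes. For Gbp2, Igtp and Ifi47 it did not. Averaged over the 10 genes and relative to the wild-type mean, wild-type 1 stood at -0.06, wild-type 2 at 0.06, Cnot3+/- 1 at 0.23 and Cnot3+/- 2 at 2.66. On the probe sets that stand for the genes, the largest gap between the wild-type arrays was 0.43, for Ifi47, while the gap between the Cnot3+/- arrays had a median of 2.28. By group means, all 10 genes were higher in Cnot3+/- (47.8% of all genes), 8 of them at least 2-fold (0.516% of all genes), and in 7 the groups did not overlap (14.1% of all genes).

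The mean difference over the 10 genes was 1.45. It was 0.23 without Cnot3+/- 2 and 2.66 without Cnot3+/- 1, so Cnot3+/- 2 set its size. Without Cnot3+/- 2, 9 genes were higher and 1, Gbp2, was lower, between -0.34 and 0.59, and none reached 2-fold. Without wild-type 1 the differences ran from 0.77 for Iigp1 to 2.31 for Gbp6, and without wild-type 2 from 0.81 for Irgm1 to 2.48 for Gbp6. The moderated SEs of the 10 genes, from 0.39 to 1.25, exceeded the median SE of all genes, 0.16.

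**Figure D4:**
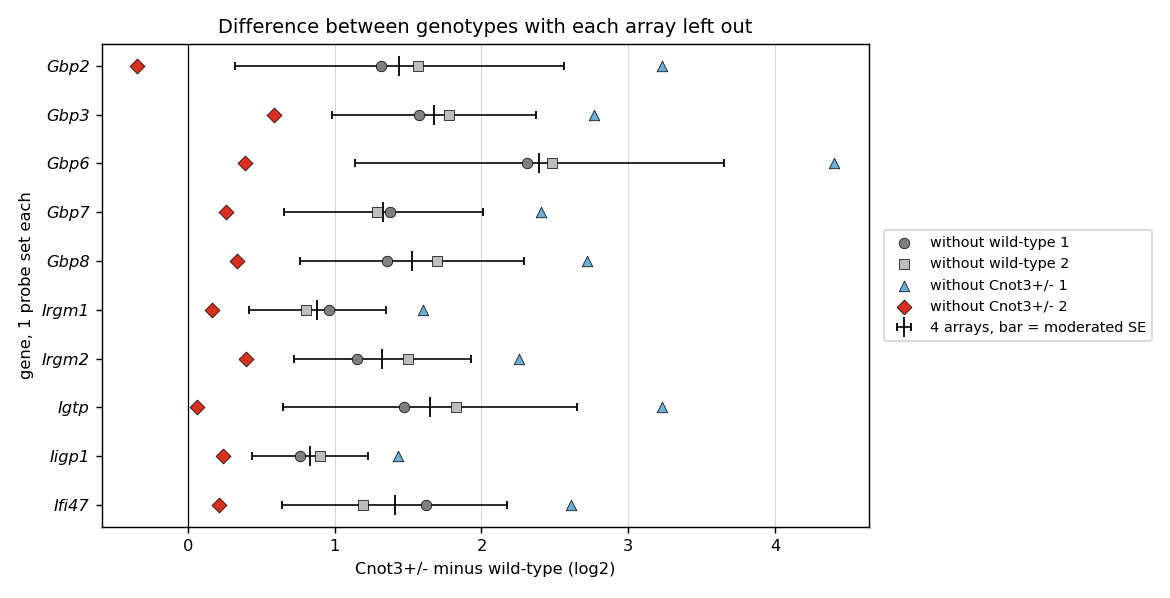
Difference between genotypes (Cnot3+/- minus wild-type, log2, x axis) for each GTPase gene, over 4 arrays (black tick, bar = moderated SE, n = 2 per group) and with each array left out (coloured points). Without Cnot3+/- 2 (red) the differences lie between -0.34 and 0.59, and without Cnot3+/- 1 (blue) between 1.43 and 4.40.

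Other members of the families did not all share the pattern. Of 18 further GBP and IRG symbols listed, 4 had a probe set with that symbol alone. Gbp2b, the gene earlier called Gbp1, lies between Gbp3 and Gbp2 in the gene order. It read 4.41 on wild-type 1, 4.97 on wild-type 2, 5.07 on Cnot3+/- 1 and 7.32 on Cnot3+/- 2 (difference 1.51, SE 0.73, limma adjusted p = 0.999). Its window held an ISRE-like match further out, starting 137 bases before the start. Gm4951, an IRG-family gene model, read 10.08, 9.81, 9.87 and 10.11 in that order, so Cnot3+/- 2 was level with wild-type 1. Irgc1, best known from testis, read 4.38, 4.58, 4.71 and 4.25. Irgq, a divergent family member, read 6.90, 7.08, 7.02 and 7.03. These 3 genes differed by 0.04 (SE 0.17), 0.00 (SE 0.20) and 0.04 (SE 0.14), each with a limma adjusted p = 1, and each turned below 0 when some array was left out.

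Of the interferon gamma ligand, receptor and signalling genes, 0 of 15 tested passed in limma (1 at an unadjusted p below 0.05, 0 without moderation of variances). The median difference was 0.09, beside -0.01 over all genes, and 10 were higher (47.8% of all genes) and 5 lower. Cnot3+/- 2 was the highest array for 12 of the 15, against 24.9% of all genes. Ifng, the cytokine gene, was too dim to be tested, at 2.74, 2.78, 2.73 and 3.11 on the 4 arrays. The receptor chain genes Ifngr1 and Ifngr2 differed by 0.08 (SE 0.25) and -0.07 (SE 0.27). Irf1, a transcription factor that interferon gamma induces, read 7.98 and 8.19 on the wild-type arrays, 8.0 on Cnot3+/- 1 and 9.53 on Cnot3+/- 2 (difference 0.68, SE 0.50). Its groups overlapped, with Cnot3+/- 2 alone high. Irf8, a myeloid transcription factor, differed by 0.76 (SE 0.48) and by 0.02 without Cnot3+/- 2. Nlrc5, the transactivator of MHC class I genes, departed from this: it read 6.22 and 6.43 on the wild-type arrays, 7.06 on Cnot3+/- 1 and 7.86 on Cnot3+/- 2 (difference 1.14, SE 0.29, limma adjusted p = 0.999), and 0.74 without Cnot3+/- 2. Socs3, an inhibitor of cytokine receptor signalling, differed by 0.64 (SE 0.29).

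Other genes that interferon gamma induces showed the single high array too. None of 26 passed in limma (1 at an unadjusted p below 0.05, 0 without moderation of variances). The median difference was 0.61, with 24 higher (47.8% of all genes) and 2 lower. Cnot3+/- 2 was at least 2-fold above the other 3 arrays for 13 of 26, against 1.56% of all genes. Without Cnot3+/- 2 the median was -0.04, with 11 of 26 higher. Ido1, a tryptophan-degrading enzyme gene of the same list, was too dim to be tested and was lowest on Cnot3+/- 2. The chemokine gene Cxcl10 read 4.83 and 5.22 on the wild-type arrays, 5.0 on Cnot3+/- 1 and 8.88 on Cnot3+/- 2. Cxcl9, which attracts T cells through the same receptor, read 6.95, 7.50, 7.17 and 10.19. The ubiquitin-like modifier gene Ubd read 4.13, 3.90, 4.21 and 7.90, and the chemokine gene Ccl5 read 5.90, 5.53, 5.56 and 9.40. For Cxcl9, Cxcl10 and Ccl5 Cnot3+/- 1 lay between the wild-type arrays. Their differences were 1.45 (SE 0.96), 1.91 (SE 1.22) and 1.77 (SE 1.21), and that of Ubd was 2.04 (SE 1.16).

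Type I interferon-stimulated genes were more often higher on Cnot3+/- 1 than the other interferon gamma targets, but not more often than the GTPase genes. None of 28 passed in limma (5 higher at an unadjusted p below 0.05, beside 232 of all 13379 genes, and 0 without moderation of variances). The median difference was 0.42, and 26 were higher, against 47.8% of all genes. The groups did not overlap, with Cnot3+/- higher, for 14 of 28, beside 14.1% of all genes. Without Cnot3+/- 2 the median was 0.09, with 21 of 28 higher. For the GTPase genes that median was 0.25, with 9 of 10 higher. Usp18, which encodes the protease that removes ISG15 from proteins, read 5.59 and 5.85 on the wild-type arrays, 7.37 on Cnot3+/- 1 and 8.39 on Cnot3+/- 2 (difference 2.16, SE 0.35, limma adjusted p = 0.999). Both Cnot3+/- arrays stood apart from wild-type there, and the difference was 1.65 without Cnot3+/- 2. Zbp1, a sensor of Z-form nucleic acids, and Oas1a, a synthetase of the RNase L pathway, differed by 1.25 (SE 0.48) and 0.92 (SE 0.35), and by 0.51 and 0.43 without Cnot3+/- 2. Ifit1, which binds foreign RNA ends, differed by 1.21 (SE 0.71) and by 0.10 without it. Whether the lists differ from each other was not tested.

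Of the type I interferon receptor and signalling genes, 0 of 8 passed in limma (0 at an unadjusted p below 0.05, 0 without moderation of variances), with a median difference of 0.19. Irf7, which drives type I interferon genes, read 7.89, 7.80, 7.95 and 9.49 (difference 0.87, SE 0.49). Irf9, an interferon regulatory factor of type I interferon signalling, differed by 0.54 (SE 0.24), Irf5 by 0.23 (SE 0.17) and Tyk2 by 0.23 (SE 0.15). With the probe sets of each gene averaged, Irf5 differed by 0.048 and Tyk2 by 0.069. Among 20 genes of vacuole targeting, autophagy and the inflammasome, with which GBP and IRG proteins work, 0 passed in limma (0 at an unadjusted p below 0.05, 0 without moderation of variances), and the median difference was 0.18. It was -0.07 without Cnot3+/- 2. Casp4, whose caspase senses bacterial lipopolysaccharide that GBPs expose, read 4.56, 4.47, 4.62 and 6.06 (difference 0.83, SE 0.47). Casp1 read 5.47, 5.28, 4.65 and 6.88, so Cnot3+/- 1 was the lowest array and Cnot3+/- 2 the highest. The autophagy receptor gene Sqstm1 differed by 0.45 (SE 0.25), and the inflammasome adaptor gene Pycard by 0.40 (SE 0.60).

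Markers of Kupffer cells and macrophages were also high on Cnot3+/- 2. All 17 of 17 were highest on Cnot3+/- 2, against 24.9% of all genes. Of them, 16 were at least 2-fold above each other array there, against 1.56% of all genes. Relative to the wild-type mean, the list stood at -0.07 and 0.07 on the wild-type arrays, at -0.22 on Cnot3+/- 1 and at 1.62 on Cnot3+/- 2. The summed linear signal of the 17 markers was 7739 and 8698 on the wild-type arrays, 7447 on Cnot3+/- 1 and 20930 on Cnot3+/- 2. Without Cnot3+/- 2 the median difference of the list was -0.22, with 6 of 17 higher. The scavenger receptor gene Marco read 5.73, 5.85, 6.40 and 9.49 (difference 2.16, SE 0.97), and 0.61 without Cnot3+/- 2. Cd5l, a secreted protein gene of tissue macrophages, read 9.61, 9.79, 9.86 and 11.87 (difference 1.16, SE 0.64), and 0.16 without Cnot3+/- 2. In whole liver, more cells of a type and more RNA per cell cannot be told apart.

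Some T and NK cell markers were high on the same array. Of 16 with a probe set, 11 were tested, 9 of them highest on Cnot3+/- 2 (24.9% of all genes). There 4 were at least 2-fold above each other array (1.56% of all genes). Their summed linear signal was 305.8 and 293.1 on the wild-type arrays, 283.6 on Cnot3+/- 1 and 601.6 on Cnot3+/- 2. Nkg7, a granule gene of killer cells, read 4.63, 3.98, 3.99 and 6.85, and the granzyme gene Gzmb 4.29, 3.93, 4.29 and 6.19. The list's median difference was 0.29, and -0.02 over the 3 genes that a 60% filter kept. Cd2, Ncr1, Gzma, Xcl1 and Il7r were too dim to be tested, and the values given for them were chosen after they were seen. Gzma read 3.33, 3.03, 3.31 and 6.46, while Ncr1 at 3.72, 3.92, 3.84 and 3.62 and Xcl1 at 3.17, 3.36, 3.01 and 2.96 were lowest on Cnot3+/- 2. The part of these cell types in the values of the GTPase genes was not tested.

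The remaining marker lists were tallied in the same way. Hepatocyte markers had Cnot3+/- 2 highest for 1 of 11, against 24.9% of all genes. Their summed linear signal was 142700 and 147800 on the wild-type arrays, 154700 on Cnot3+/- 1 and 147600 on Cnot3+/- 2. Their largest differences were those of the urea cycle gene Ass1 at 0.71 (SE 0.22) and the aminotransferase gene Tat at 0.56 (SE 0.27). Of 12 sinusoidal endothelial markers, all 12 were lower by group means. The list stood at -0.97 in Cnot3+/- 1 and -0.15 in Cnot3+/- 2, with summed signals of 3476 and 3679 on the wild-type arrays, 1705 on Cnot3+/- 1 and 3007 on Cnot3+/- 2. The lectin gene Clec4g differed by -0.99 (SE 0.39), and by -0.39 without Cnot3+/- 1 and -1.59 without Cnot3+/- 2. With its probe sets averaged it was -0.56. Oit3 differed by -0.99 (SE 0.23), and by -0.68 without Cnot3+/- 1 and -1.30 without Cnot3+/- 2. The lower array of this list was Cnot3+/- 1, and the list's median difference was -0.23 without that array and -0.90 without Cnot3+/- 2. The groups did not overlap, with Cnot3+/- lower, for 7 of the 12, beside 17.4% of all genes. In limma 4 of the 12 were lower at an unadjusted p below 0.05, beside 248 of all 13379 genes.

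Lists of B cell, neutrophil and dendritic cell markers had 5, 8 and 4 genes tested, with median differences of -0.12, -0.04 and -0.13. As each array was left out these ran from -0.28 to -0.09, from -0.12 to 0.03 and from -0.25 to 0.05, and the B cell median was -0.29 with no filter on dim probe sets. With the 60% filter the neutrophil median was 0.21 over 3 genes. Their summed signals ran from 166.4 to 196.7 in wild-type and from 152.9 to 155.0 in Cnot3+/- for B cells. For neutrophils they ran from 267.7 to 276.8 and from 274.4 to 369.8, and for dendritic cells from 128.8 to 152.2 and from 131.3 to 160.7. By group means 4 neutrophil markers were higher and 4 lower. Of the dendritic cell markers 1 was higher and 3 lower, and all 5 B cell markers were lower. The calgranulin genes S100a8 and S100a9 of neutrophils differed by 0.83 (SE 0.59) and 0.70 (SE 0.34), and by -0.036 and 0.19 without Cnot3+/- 2. S100a8 passed the filter on low values only through that array. The integrin gene Itgax differed by 0.73 (SE 0.46), and by 0.023 without Cnot3+/- 2, and Flt3 by -0.19 (SE 0.14). The B cell genes Cd79b and Blk differed by -0.51 (SE 0.22) and -0.46 (SE 0.19). Of all 68 markers tested in the 7 lists, 0 passed in limma (1 higher and 4 lower at an unadjusted p below 0.05, 0 without moderation of variances).

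**Figure D5:**
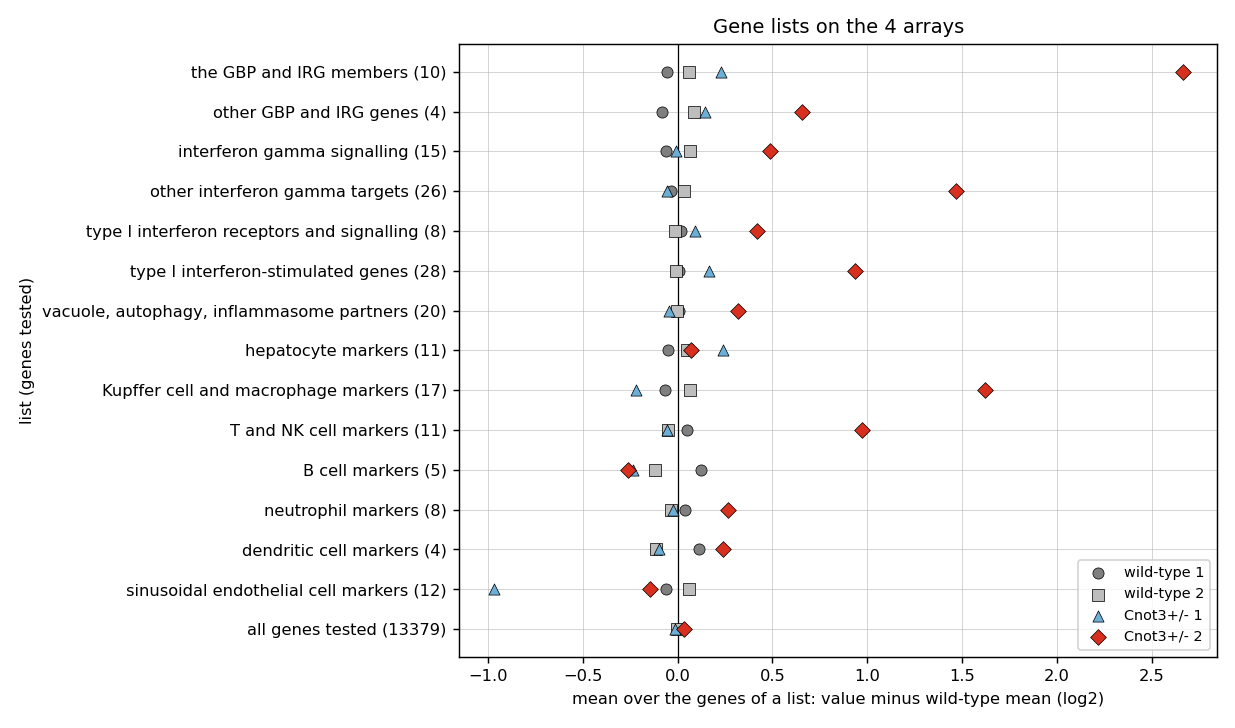
Mean over the tested genes of each list (number in brackets) of the log2 value minus the wild-type mean of the same gene, on the x axis, with 1 point per array. Cnot3+/- 2 stands at 2.66 for the GTPase genes, 1.62 for Kupffer cell and macrophage markers and 0.07 for hepatocyte markers, and Cnot3+/- 1 at -0.97 for sinusoidal endothelial markers.

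The genes with the pattern most like that of the GTPases were Clec7a, Lgals3, BC023105, Ifit1 and Vcam1. Likeness was the root mean square distance over the 4 arrays between a gene's values and the mean profile of the 10 genes, each centred on its own mean. It was 0.14 for Clec7a and Lgals3, 0.15 for BC023105 and Ifit1, and 0.16 for Vcam1, in log2 units, while the 10 genes themselves lay between 0.09 for Gbp8 and 0.73 for Gbp6. Clec7a encodes the beta-glucan receptor Dectin-1 of myeloid cells, and read 7.12 and 6.88 on the wild-type arrays, 7.10 on Cnot3+/- 1 and 9.58 on Cnot3+/- 2. Lgals3 encodes galectin 3, a galactose-binding lectin abundant in macrophages, and read 6.54, 6.54, 6.45 and 9.14. Vcam1, an adhesion molecule gene of endothelium and Kupffer cells, read 7.67, 7.88, 7.64 and 10.29. BC023105 read 4.47, 4.58, 4.89 and 7.56, with Cnot3+/- 1 above the higher wild-type array by 0.31. These genes were picked for likeness to a profile that is high on Cnot3+/- 2, so their high values there follow from the choice.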

How the data were processed

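Values are the authors' deposited log2 values of 4 arrays. RMA is the method that the submitters' processing notes name. Every value column was mapped to a sample. RMA corrects background, normalizes across arrays and summarises probes into probe sets. No version of it is named in the labels. The log2 scale was taken from the values. Probe sets were named through the platform's annotation, whose symbols can be old: 34958 had 1 gene symbol, 932 several and 9211 none. A filter dropped the 40% of probe sets with the lowest mean (under 4.06) and left 27060. The brightest probe set then stood for its gene, _x_at and _s_at kinds being used only where a gene had no other, which gave 13379 genes.

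The genotype comparison used lmFit and eBayes of limma 3.58.1 in R 4.3.3, as a two-sided test with Benjamini-Hochberg adjustment over all genes and 2 residual degrees of freedom. The test was checked on simulated data with normal spread, equal in both genotypes, so without a single high array as seen here. There 36% of 50 genes given a log2 change of 1 passed, and 90% of 50 given a change of 2. A 2-fold change can therefore go without a call. SE is the moderated standard error. P-values rest on few animals and on the prior, which added 3.17 degrees of freedom. The 10 genes, the lists and the alternatives were chosen with earlier results of these data known. Named besides the 10 genes were other family members, up to 4 genes of largest difference per pathway list and 2 per marker list, with Ifng, Ifngr1, Ifngr2, Irf1 and Usp18 in any case, and the 5 genes of most like pattern. Alternatives covered filters, probe set choice, normalization, moderation, a replicate block and leaving out each array. Promoter windows are RefSeq's, and no sequence is shown for genes without one.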

Additional observations from a re-analysis of the deposited data

Results flagged for a closer look

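A probe set that the comparison of genes did not use was high in the Cnot3+/- arrays. It carries 2 gene symbols, at least 1 of them of a related large GTPase, so it names no gene here. It read 7.22 on wild-type 1, 6.97 on wild-type 2, 8.62 on Cnot3+/- 1 and 11.03 on Cnot3+/- 2, a difference of 2.73, and its groups did not overlap. Another probe set, with 2 IRG symbols, read 5.95, 6.26, 6.03 and 10.94, with Cnot3+/- 1 between the wild-type arrays. A further one, with the symbols Gbp8 and Gbp4, read 5.16, 4.95, 4.65 and 4.94. It was not high on Cnot3+/- 2, and both Cnot3+/- arrays lay below both wild-type arrays (difference -0.26). That is opposite in direction to the probe set that stands for Gbp8.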

How the results depend on the processing

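The mean difference over the 10 GTPase genes lay between 1.43 and 1.46 under the 9 settings that kept all arrays, and between 0.23 and 2.66 as each array was left out. Gbp8 did not pass the 60% filter. The number of genes called higher was 2, against 1 without moderation of variances, 0 with the replicate block and 0 to 38 with an array left out, and the number called lower was 0, against 1 without moderation. The replicate number paired deviations with a correlation of 0.16 over 2 pairs, too few to show a pairing, and the block took the count of calls to 0. Without Cnot3+/- 1 the genotype is 1 array, which is assumed to vary like the others. Many named genes were chosen for large differences or for likeness to a profile high on Cnot3+/- 2. Calls among them in that fit follow in part from the choice, so only the sizes of differences are given.

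List medians with an array left out ran from 0.06 to 0.13 for other GBP and IRG genes, 0.018 to 0.31 for interferon gamma signalling, -0.044 to 1.25 for interferon gamma targets, 0.12 to 0.20 for type I signalling, 0.092 to 0.77 for type I stimulated genes and -0.073 to 0.13 for vacuole and inflammasome partners. With the probe sets of a gene averaged, type I signalling had a median of 0.11 and the partners 0.045.

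Differences without a call that turned sign ran, as each array was left out, from -0.094 to 0.18 for Gm4951, -0.22 to 0.23 for Irgc1, -0.0515 to 0.13 for Irgq, -0.086 to 1.45 for Irf1, -0.26 to 0.42 for Ifngr1, -0.45 to 0.31 for Ifngr2, -0.027 to 3.85 for Cxcl10, -0.15 to 3.68 for Ccl5, -0.061 to 2.96 for Cxcl9, -0.54 to 1.34 for Pycard, -0.72 to 1.51 for Casp1, -0.32 to 2.54 for Nkg7, -0.036 to 1.70 for S100a8, -0.092 to 2.60 for Lgals3, -0.14 to 2.51 for Vcam1 and -0.36 to 0.30 for Cnot3. With probe sets averaged, Irgq was at -0.023 and Cnot3 at 0.040, and after quantile normalization Irgq was at -0.0073. The cause of these turns was not tested, beyond the array left out. Dim signal limits Gbp8, S100a8, Ifng and the 5 untested T and NK cell markers.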

Other observations

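Genes outside the 10 were also split by the ISRE-like letters. Of 376 other tested genes with a match in a promoter window, 14 had Cnot3+/- 2 at least 2-fold above each of the other 3 arrays, or 3.72%. Of 10379 without a match it was 136, or 1.31%. Seen from the other side, 9.33% of the 150 genes with such an excess and a window held a match. These shares are a description of this array and were not tested.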
